A study of Oryza sativa Japonica Group with 3 samples.

Results

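The 10 genes described here encode enzymes and enzyme subunits of chlorophyll synthesis in rice. They were taken as a list of loci, and FPKM (fragments per kilobase of transcript, relative to all mapped fragments) was summed over the transcripts of each locus. All 10 were found among the 55759 annotated loci of the series, and all were above 0 in each of the 3 libraries. Messenger RNA was sequenced from whole seedlings of the cultivar Xindao-18 (Oryza sativa, Japonica group) kept on wet paper at 28 °C in cycles of 12 h light and 12 h dark, and taken at 96 h. Seeds of the control group were not implanted, and the other seeds received a low-energy beam of nitrogen ions. The low fluence library was mixed from seedlings given 1 and those given 2 in units of 1e+17 ions per square centimetre, with 10 µg of RNA from each pool of 50 buds. The high fluence library was mixed in the same way from seedlings given 6 and those given 8 in that unit, so the fluences within a library cannot be told apart. By day 7 the low fluences had no significant effect on growth and the high fluences inhibited it, per the labels.

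Each group was 1 library of pooled RNA. The spread between replicates is therefore unknown, and no test is given. Differences are ratios of FPKM + 1, and a locus was called different from a ratio of 2 upward. In whole seedlings, fewer cells of a type and less RNA per cell cannot be told apart. Annotated loci above 0 numbered 24804 in the control library, 23652 in the low and 25815 in the high fluence library.

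Chlorophyll is made in plastids from glutamate. HEMA1 and GSA make 5-aminolevulinate, the precursor of all tetrapyrroles, and the first of them, glutamyl-tRNA reductase, is the main point of control. Magnesium chelatase, built of the subunits CHLH, CHLI and CHLD, then puts magnesium into protoporphyrin and so commits it to chlorophyll rather than heme. DVR reduces a vinyl side group, PORA and PORB reduce protochlorophyllide in a step driven by light, YGL1 (chlorophyll synthase) adds the phytol tail, and CAO1 makes chlorophyll b. A rice mutant in YGL1 has yellow-green leaves as a young plant.

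PORA was by far the most abundant of these messages and was also among those that differed most. It stood at 391 FPKM in control seedlings, 529 after low and 157 after high fluence. CHLH and CAO1 had the same order of libraries, highest at low fluence and lowest at high fluence. The other 7 genes were all higher at high fluence than in the control, by 1.05-fold to 1.67-fold. PORB had the lowest ratio of these, and 69.2% of the 9265 annotated loci averaging at least 10 FPKM had a lower ratio than PORB. In FPKM as deposited, none of the 10 genes was highest in the control library, whereas 48.2% of the 9265 annotated loci averaging at least 10 FPKM were.

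**Figure D1:**
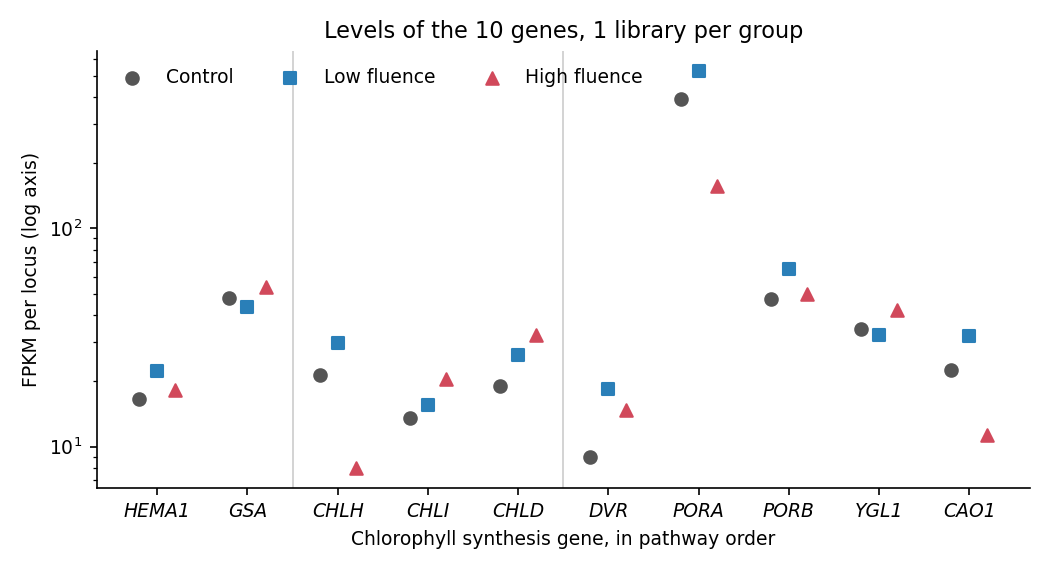
FPKM of each gene (log axis) in the control, low fluence and high fluence libraries, grouped from the first to the last steps of the pathway. Within the last steps, the genes are not strictly in order of reaction. There is 1 point per library and no error bars since each group is 1 library. PORA lies above the other genes in every library, and CHLH, PORA and CAO1 are lowest at high fluence.

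In FPKM as deposited, the first enzymes of the pathway differed by less than 2-fold in every comparison. HEMA1 (LOC_Os10g35840, chromosome 10) stood at 16.5 FPKM in control seedlings, 22.3 after low and 18.1 after high fluence. It was highest at low fluence, 1.33-fold above control, and at high fluence was 1.10-fold above control, a direction that turned (log2 ratio of -0.11) once the assembled unit listed beside it was added. Of the annotated loci averaging at least 10 FPKM, 91.1% had a lower ratio of low fluence to control than HEMA1. GSA (LOC_Os08g41990, chromosome 8), glutamate-1-semialdehyde aminotransferase, which takes up the product of HEMA1, stood at 48.0, 43.7 and 54.1 FPKM in the same order. Its 3 values lay closer together than those of any other member, with a ratio of 1.23 between the highest and the lowest library.

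Of the 3 subunits of magnesium chelatase, only CHLH was lower at high fluence than in the control. CHLH (LOC_Os03g20700, chromosome 3), the large subunit that binds the porphyrin, stood at 21.2 FPKM in control seedlings, 29.7 after low and 7.98 after high fluence. It was 2.48-fold below control at high fluence and went from 6th of the 10 genes by level in the control to the lowest. CHLI (LOC_Os03g36540, chromosome 3), an ATPase subunit, stood at 13.5, 15.6 and 20.3 FPKM. CHLD (LOC_Os03g59640, chromosome 3), which joins the ATPase ring, stood at 19.0, 26.3 and 32.5 FPKM. Both were highest at high fluence, CHLI 1.47-fold and CHLD 1.67-fold above control, and these were the only members for which low fluence lay between the other libraries. For CHLI this order rested on its second transcript, since its first alone was lowest at low fluence (12.8 FPKM against 13.3 in the control).

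The balance between the subunits therefore differed in the high fluence library. FPKM is a value per length and can be compared between genes of a library, and the ratio of CHLH to CHLD was 1.12 in control seedlings, 1.13 after low and 0.246 after high fluence. The ratio of CHLH to CHLI was 1.57, 1.91 and 0.393. The ratio of CHLD to CHLI was 1.41, 1.69 and 1.60, so their balance differed less between libraries than their balance with CHLH. The low fluence ratio depends on the second transcript of CHLI. That transcript held 17.8% of CHLI at low fluence, against 2.05% in the control and 1.59% at high fluence. A ratio within a library does not depend on how libraries are scaled.

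Among the last steps, the light-driven reductases PORA and PORB differed from each other at high fluence. In rice, PORA is known for its part in early greening and PORB for keeping chlorophyll synthesis going as leaves grow in the light. PORA (LOC_Os04g58200, chromosome 4) was 2.48-fold below control there, with the FPKM values given above. PORB (LOC_Os10g35370, chromosome 10) stood at 47.5 FPKM in control seedlings, 65.4 after low and 50.2 after high fluence, 1.05-fold above control. After low fluence both exceeded the control by nearly the same ratio, 1.35-fold for PORA and 1.37-fold for PORB. The ratio of PORA to PORB was 8.24 in the control and 8.09 at low fluence, and 3.13 at high fluence. PORA made up 62.8% of the summed FPKM of the 10 genes in control seedlings, 64.9% after low and 38.4% after high fluence. The sum itself was 623 FPKM in control seedlings, 815 after low and 408 after high fluence, while the 9 genes other than PORA summed to 232, 286 and 252. In FPKM as deposited, the lower sum at high fluence than in the control was thus carried by PORA. The order of the sums depends on how the libraries are scaled. The factors for an equal FPKM total over all transcripts were 0.333 for control, 0.301 for low and 0.605 for high fluence. The sums were not recomputed under that scaling.

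**Figure D2:**
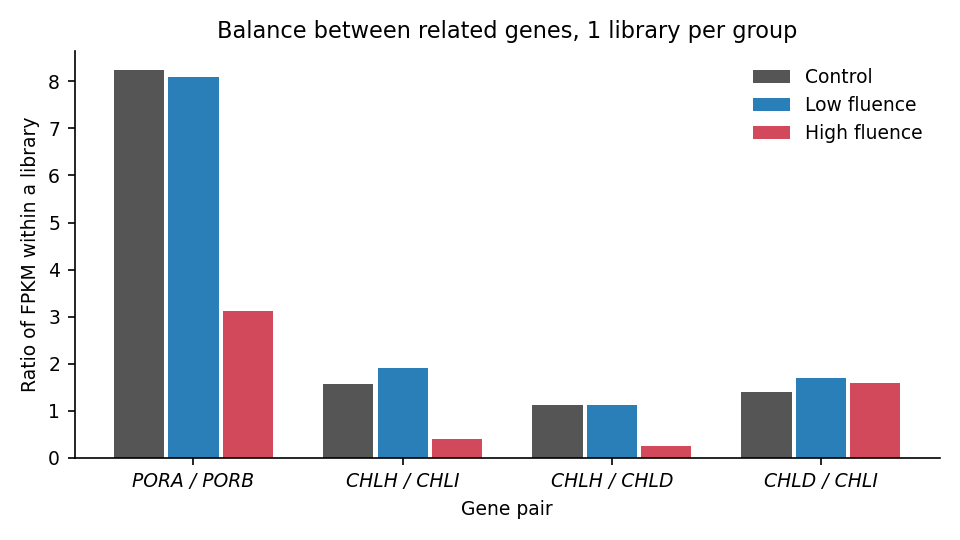
Ratio of FPKM between related genes within each library, 1 bar per library, with no error bars since each group is 1 library. PORA to PORB is above 8 in the control and low fluence libraries and 3.13 at high fluence, CHLH to CHLI and CHLH to CHLD lie under 1 at high fluence alone, and CHLD to CHLI stays between 1.41 and 1.69.

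CAO1 (LOC_Os10g41780, chromosome 10), chlorophyllide a oxygenase, stood at 22.4 FPKM in control seedlings, 32.3 after low and 11.3 after high fluence. It was 1.90-fold below control at high fluence, just short of the 2-fold limit, and 2.70-fold below low fluence. Rice has a second, similar CAO gene, and the counting of reads that fit both is not described in the labels. YGL1 (LOC_Os05g28200, chromosome 5), which acts on the same pool of chlorophyllide, stood at 34.6, 32.4 and 42.4 FPKM. It was 1.22-fold above control at high fluence, and the ratio of CAO1 to YGL1 was 0.647 in control seedlings, 0.997 after low and 0.267 after high fluence. DVR (LOC_Os03g22780, chromosome 3), divinyl reductase, stood at 8.94 FPKM in control seedlings, 18.4 after low and 14.7 after high fluence. It was the lowest of the 10 genes in the control, and it had the highest ratio to control of any member at low fluence, 1.95-fold.

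The comparison of high fluence with control asked which genes differ where growth was later inhibited. CHLH and PORA were at least 2-fold lower, 2 of 10, and none was at least 2-fold higher. Both calls ended, at log2 ratios of -0.47 for CHLH and -0.45 for PORA, when each library was rescaled to the same FPKM total over all transcripts, which gave 4 genes higher and 0 lower, while 16.8% of the loci averaging at least 1 FPKM were then higher and 1.21% lower. Of the 18934 annotated loci averaging at least 1 FPKM, 6.33% were lower and 4.23% higher by that fold in FPKM as deposited. Among the 9265 averaging at least 10 FPKM, as all 10 genes did, 5.20% were lower and 220 loci were higher. With 10 genes, a count of 2 is a description and no evidence that the list differs from other loci. Among the 9265 loci of the higher mean, 2.55% had a lower ratio than CHLH, 2.54% a lower ratio than PORA and 6.24% a lower ratio than CAO1. The median log2 ratio of the 10 genes was 0.15, against -0.15 over those loci, so the list as a whole was not lower. Its range was wide, from -1.31 for PORA to 0.74 for CHLD. Between CAO1 and CHLD lay PORB at 0.08, HEMA1 at 0.13, GSA at 0.17, YGL1 at 0.28, CHLI at 0.55 and DVR at 0.66.

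At low fluence, compared with control to ask what differs where growth was not inhibited, most of the 10 genes were above control by similar ratios. The median log2 ratio was 0.44, or 1.36-fold, against -0.07 over the loci averaging at least 10 FPKM. Of the 10 genes, 8 were above control, while 40.6% of those loci were, and GSA and YGL1 were the exceptions, at log2 ratios of -0.13 and -0.09. The direction of GSA turned, to 0.12, once the assembled unit listed beside it was added. HEMA1, CHLH, CHLD, PORA, PORB and CAO1 had log2 ratios from 0.41 to 0.51, and CHLI had 0.19. CHLI turned to -0.05 with its first transcript alone, and HEMA1 fell to 0.17 with the assembled unit beside it added. None of the 10 genes was at least 2-fold higher or lower, where 3.06% of the 18934 loci were higher and 3.52% lower. Such ratios were rarer among the 9265 loci averaging at least 10 FPKM, as all 10 genes did. Of those loci, 86 were higher and 100 lower by that fold. DVR passed the 2-fold limit under 6 alternative ways of computing its value, with log2 ratios of 1.00 to 1.25, against 0.96 as reported. Its level in the control was under 10 FPKM, so it reached a mean of 10 only through the irradiated libraries.

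**Figure D3:**
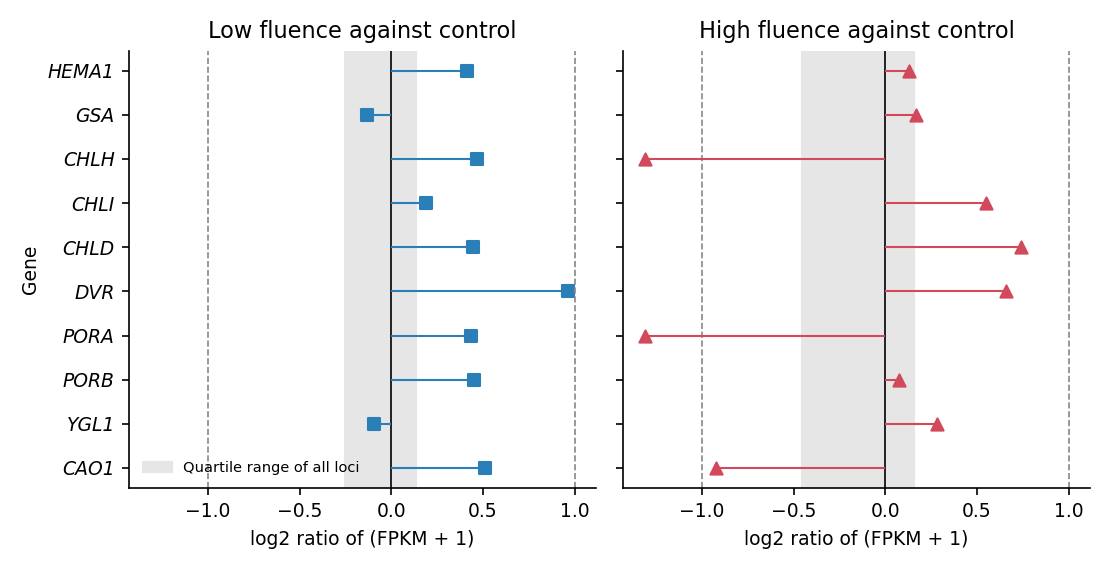
log2 ratio of (FPKM + 1) to the control for each gene at low fluence and at high fluence, 1 value per gene, with dashed lines at a ratio of 2 and a grey band from the lower to the upper quartile of the 9265 annotated loci averaging at least 10 FPKM. At low fluence 8 genes lie right of the control, and at high fluence CHLH and PORA pass the 2-fold line to the left and CAO1 lies close to it.

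The widest differences were between the irradiated libraries, a comparison that leaves out the control. CHLH was 3.42-fold lower after high than after low fluence, PORA 3.35-fold and CAO1 2.70-fold, 3 of 10 genes, and none was at least 2-fold higher. Over the 18934 loci 4.56% were lower and 3.61% higher by that fold. Of the loci averaging at least 10 FPKM, 2.97% were lower and 109 loci were higher. Of the 9265 loci with that mean, 0.572% had a lower ratio than CHLH, 0.626% a lower ratio than PORA and 1.00% a lower ratio than CAO1. The other 7 genes lay between a log2 ratio of -0.38 for PORB and 0.38 for YGL1, with DVR at -0.31, HEMA1 at -0.28, CHLD at 0.29, GSA at 0.30 and CHLI at 0.36. The median of the 10 was -0.29, against -0.09 over all loci of that mean. At high fluence 4 of the 10 were higher and 6 lower. CHLD had the lowest ratio of the 4, and 85.5% of those loci had a lower ratio than CHLD. A pair of assembled transcripts held 73.3% of the FPKM total in the control library, 76.3% in the low and 53.0% in the high fluence library. Rescaling each library to the same total moved the median of all loci to 0.83 and turned HEMA1, DVR and PORB to higher at high fluence, but left CHLH, PORA and CAO1 lower at high fluence than in both other libraries, by less than 2-fold.

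**Figure D4:**
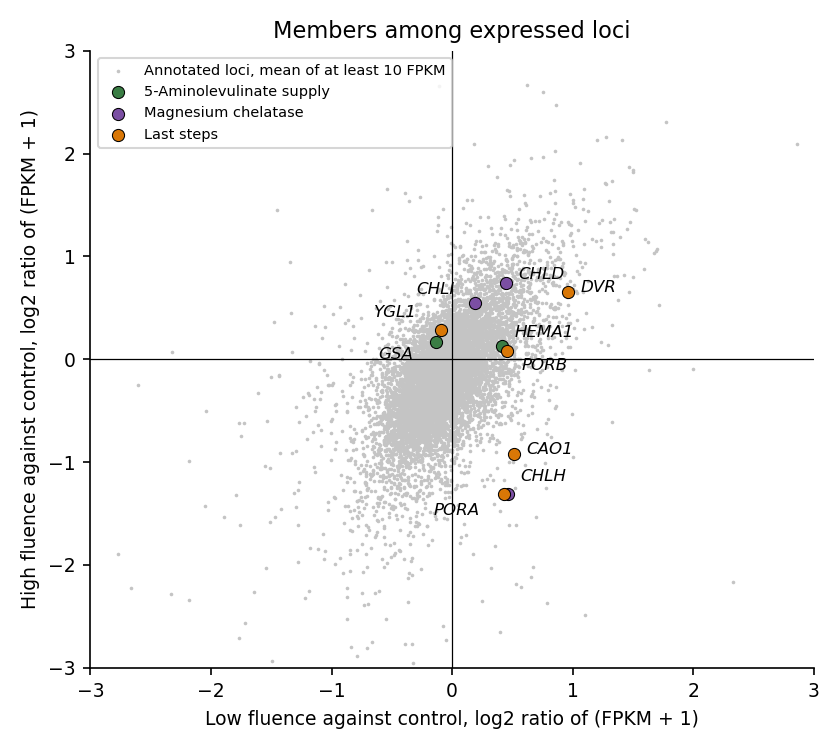
Each point is a gene, with its log2 ratio of (FPKM + 1) to the control at low fluence on the horizontal axis and at high fluence on the vertical axis. Grey points are annotated loci averaging at least 10 FPKM, of which 35 lie outside the axes, and both ratios share the control library. CHLH and PORA almost coincide, with log2 ratios of 0.47 and 0.43 on the horizontal axis and -1.31 on the vertical one, and CAO1 lies near them.

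CHLH and PORA had almost the same pair of ratios, though their levels differed widely. At low fluence they were 1.38-fold and 1.35-fold above control, and at high fluence both were 2.48-fold below it. The loci lie on chromosomes 3 and 4. Over only 3 libraries such likeness is weak, and how many other loci share this pair of ratios was not counted. Around a different point, the median log2 ratios of all 10 genes to the control (0.44 at low and 0.15 at high fluence), 101 of 9248 other loci lay within 0.1 on both axes, 1.09% of them. The identifiers of those loci are not paired with names in the files or the reference table.

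Most of the 10 values rested on a single transcript model. The loci held 19 listed transcripts, 4 of them at 0 in every library, and in 9 of the 10 genes the leading transcript held at least 90% of the FPKM in every library. CHLI was the exception. Its first transcript stood at 13.3 FPKM in control seedlings, 12.8 after low and 19.99 after high fluence, and its second at 0.278, 2.77 and 0.322, which was 17.8% of the locus at low fluence. With the first transcript alone, the log2 ratio of CHLI at low fluence was -0.05 in place of 0.19. The leading transcript of PORA stood at 372, 483 and 147 FPKM and the third at 19.4, 45.9 and 10.4, so both were highest at low fluence and lowest at high fluence. CHLH rested on its second transcript, at 19.99, 29.5 and 7.70 FPKM, with the first at 1.25, 0.252 and 0.279.

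Assembled units, transcripts built from reads with no gene assignment, were listed directly beside 6 of the 10 genes in the order of rows, which does not follow position throughout, and whether they share reads with them was not tested. Beside CHLH, CUFF.6930 stood at 2.94 FPKM in control seedlings, 5.21 after low and 2.47 after high fluence, and the sum with CHLH was 24.2, 34.9 and 10.4. The difference in CHLH was thus not offset by this unit. CUFF.2619 beside HEMA1 stood at 3.22 FPKM in the control and was listed at 0 in both irradiated libraries, and CUFF.7216 beside CHLI stood at 1.53, 0.677 and 0.995. No such unit was listed beside PORA, PORB, YGL1 or CAO1.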

How the data were processed

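The deposited values are FPKM, 1 per transcript for 87523 transcripts, per the file headers, and TopHat2 2.0.5 is named in the submitters' processing notes. For the assembler, genome build, annotation release and strandedness, the sources used here give nothing. FPKM was summed per locus identifier and compared as log2 ratios with a pseudocount of 1, which understates differences of low genes (Python 3.11.15, pandas 2.3.3, numpy 2.4.6). The fold calls were checked on control values with set changes and no noise, which tests the code and not the reported differences. Each group has 1 library, so no test was run. All 10 genes are named in every comparison with their values, and assembled units beside them where their mean was at least 1 FPKM. The members and lists were chosen with earlier results of these data known. Gene names come from the list, and 7 of the 10 symbols were found in the RefSeq gene table (assembly ASM3414082v1), all on the chromosome of the identifier. A list of 19 other pathway loci was left out because none of its identifiers is paired with a name there. Sequences were not used here. FPKM gives no total counts, so no counting interval is given. Steps among values under 0.2 FPKM did not settle the relative depth, since 2 steps matched nearly as many loci in each pair of libraries (within 1%). High fluence against control gave 1.36 times (78.1% of 983 loci) or 0.681 times (74.8%), low fluence against control 0.502 times (83.4% of 559) or 0.997 times (82.3%), and high against low fluence 1.35 times (80.1% of 633) or 2.71 times (78.7%).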

Additional observations from a re-analysis of the deposited data

Results flagged for a closer look

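Assembled units beside GSA and DVR, which are outside the values used for the genes, were above their control level in both irradiated libraries. CUFF.13430 beside GSA stood at 1.77 FPKM in control seedlings, 10.4 after low and 9.47 after high fluence. CUFF.7008 beside DVR stood at 1.43 FPKM in control seedlings, 7.74 after low and 12.4 after high fluence. Added to DVR, this unit gave 10.4, 26.1 and 27.1 FPKM, so that DVR with it was at least 2-fold above control in both irradiated libraries. Its log2 ratio of high to low fluence then turned from -0.31 to 0.05. Each group is 1 library, and the differences were not tested.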

How the results depend on the processing

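Of 330 values of single genes under 11 alternatives, 296 kept their direction and their side of the fold limit, 19 came to pass it, 8 no longer did and 7 changed sign while under 2-fold. Part of these values could not change. The alternatives that moved only the fold limit leave every ratio as it was. The leading transcript is the whole value in the 4 genes with 1 listed transcript. Rescaling to an FPKM total of 1000000 over all transcripts moved all loci together, by a median log2 ratio of 0.64 at high fluence against control in place of -0.15. It gave 4 of the 10 genes higher and 0 lower, with a median of 0.95, against control, and 4 higher and 0 lower, with a median of 0.62, against low fluence. Of the 18934 loci, 16.8% were then higher and 1.21% lower against control, and 23.3% higher and 0.750% lower against low fluence. The distance of the genes' median from that of all loci was 0.31 under that scaling and 0.30 without it. At high fluence against control, a ratio of at least 1.5 gave 2 genes higher and 3 lower, CAO1 among them, a ratio of at least 3 gave 0 lower, and adding assembled units gave 1 higher, DVR. Between the irradiated libraries, a ratio of at least 3 gave 2 lower in place of 3, without CAO1. At low fluence, 1 gene, DVR, was higher at a ratio of at least 1.5, with a pseudocount of 0.1, with centring on 20 bins of expression, with median-of-ratios or upper-quartile scaling, with rescaling over annotated transcripts, and with assembled units added. Apart from the rescaling over all transcripts, the share of all loci past the limit is not given for these alternatives. Their counts describe the 10 genes alone, and whether they are unusual was not tested. With a minimum mean of 10 FPKM, the loci at least 2-fold higher and lower numbered 220 and 482 at high fluence against control in place of 800 and 1198, 86 and 100 at low fluence in place of 579 and 666, and 109 and 275 between the irradiated libraries in place of 684 and 864. Fewer loci were counted, 9265 in place of 18934, but the share past the limit was smaller as well. Loci at least 2-fold lower made up 5.20% in place of 6.33% at high fluence against control. Between the irradiated libraries they made up 2.97% in place of 4.56%. No paired analysis was possible because each group has 1 library.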
